A study of Mus musculus with 12 samples.

Results

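The 889 genomic sites described here were accessible to DNase I in every library of growing, unsynchronised erythroid cells and were listed in no library of mitotic cells, in both of the 2 cell lines studied. The peaks of the 12 replicate lists on chromosomes 1 to 19 were merged into regions where they shared at least 1 bp, and the sites were selected on listed presence alone, with a peak of all 6 asynchronous lists and of none of the 6 mitotic lists. The merge gave 263720 regions, of which 889 (0.337%) had this pattern. Of the 26664 regions held by all 6 asynchronous lists they were 3.33%. The opposite pattern, with all 6 mitotic lists and no asynchronous list, was held by 72 regions (0.0273% of all, and 0.288% of the 24976 regions of all 6 mitotic lists). Because presence by stage chose the sites, their strength in asynchronous against mitotic lists is described without a test.

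DNase-seq was done on 4 groups of 3 libraries each. Mitotic G1E-ER4 cells had received 100 nM estradiol for 22 h and 200 ng/ml nocodazole for 7 h, and mitotic G1E cells nocodazole alone. Both were then sorted for histone H3 phosphorylated at serine 10. Asynchronous G1E-ER4 cells had received estradiol only, and asynchronous G1E cells neither drug. G1E is a mouse line derived from embryonic stem cells of strain 129 in which the gene for the erythroid transcription factor GATA1 was disrupted, and G1E-ER4 is its subline with an inducible GATA1, so both are single lines in which GATA1 activity, estradiol and line cannot be told apart. All cells were fixed in 0.1% formaldehyde. Mitotic digests used 2000000 cells and asynchronous digests 2000000 to 10000000, so mitosis, nocodazole, sorting and cell input cannot be told apart either. The labels do not say that replicates were separate cultures, and the p-values below measure only the spread between these libraries. The erythroid identity of the cells was not checked here, since no gene annotation of the lists' genome build was used.

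DNase I cuts chromatin where nucleosomes are displaced, mostly at promoters, enhancers and insulators bound by transcription factors. During mitosis chromosomes condense, transcription largely stops and many factors leave the DNA, while some sites stay open and some factors stay bound, which is known as mitotic bookmarking. Sites that close are of interest because they have to be opened again when the daughter cells enter interphase. In a bulk digest, an opening in fewer cells and a weaker opening in every cell cannot be told apart. Positions are on the mouse build mm9, and the sequences and genes at the sites were not analysed here.

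Every list gave 100000 peaks in falling order of signal, of which 98885 to 99677 lay on chromosomes 1 to 19. A rank counts from 1 at the highest signal of the list. Read depth is not known from peak lists. The authors' peak names carry a number that rises along each chromosome in every list, and the highest numbers summed to between 421103 and 586668 in mitotic lists and between 273095 and 539539 in asynchronous lists. Read as the order of all peaks that were called, which no source states, these numbers make the deposited peaks 17.0% to 23.7% of those numbered in mitotic lists and 18.5% to 36.6% in asynchronous lists. The asynchronous lists fell off more steeply, with a signal at rank 10000 of 1.86 to 2.67 times that of the last peak in mitotic lists and 3.19 to 6.30 times in asynchronous lists.

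The numbers show how much can be said about absence. At each site, the 2 listed mitotic peaks on either side were found, and the peak numbers missing between them were counted. The median was 9, 7 and 6 missing numbers per site in mitotic G1E-ER4 replicates 1, 2 and 3, and 11, 7 and 6 in mitotic G1E replicates 1, 2 and 3. Between all neighbouring peaks of these lists the median was 1 or 2. The sites did not stand apart from like regions in this count. Over all pairs of a site and a mitotic list the median was 8. For regions of all 6 asynchronous and 1 to 5 mitotic lists it was 8 or 9, counted over the mitotic lists without the region. Read this way, at most sites the mitotic lists skipped several weaker peaks in the surrounding interval, and whether one of them lay on the site cannot be read from the files. No number was missing, so that no peak had been numbered at the site at all, for 6, 17 and 39 of the sites in the G1E-ER4 mitotic lists and for 15, 9 and 23 in the G1E mitotic lists. Of the 889 sites, 89 had this in at least 1 mitotic list, 13 in at least 2 and none in all 6. "Lost in mitosis" thus means, for 800 of the sites, below the rank limit or absent in every mitotic list, without a distinction between these. For the other 89 the same holds in at least 1 mitotic list.

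**Figure D1:**
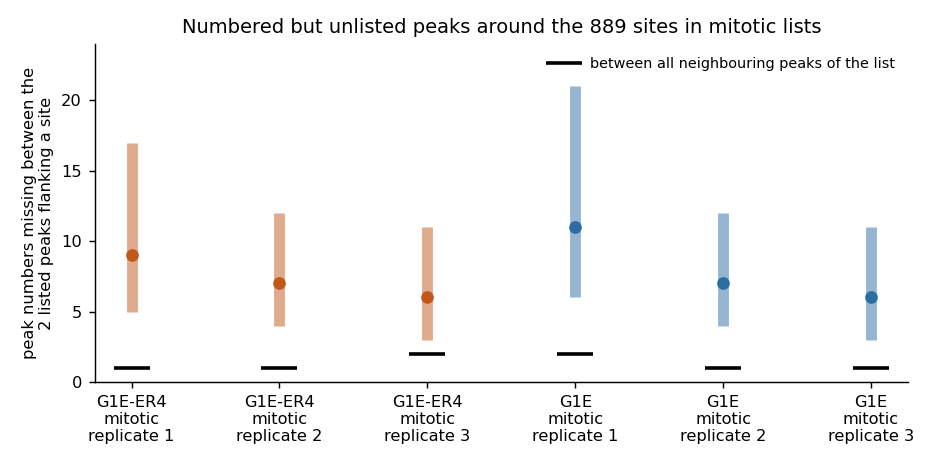
Peak numbers missing between the 2 listed mitotic peaks that flank each of the 889 sites, for the 6 mitotic libraries on the horizontal axis. Points are medians, thick lines span the quartiles and black dashes give the median between all neighbouring peaks of the same list. Medians are 6 to 11 at the sites and 1 or 2 between all neighbouring peaks. Regions of all 6 asynchronous and 1 to 5 mitotic lists, not drawn, had medians of 8 or 9 in the mitotic lists without them.

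The share with no missing number fell with the number of mitotic lists that held a region. Over all pairs of a site and a mitotic list it was 2.05% (109 of 5330 pairs). Among regions of all 6 asynchronous lists it was 0.961% for those with 1 mitotic list, 0.860% with 2, 0.415% with 3, 0.289% with 4 and 0.177% with 5, counted over the mitotic lists without the region. The interval between the flanking listed peaks was also longest at the sites, with a median of 35523 bp, against 20461 bp for regions of 5 mitotic lists. Both are descriptions of the contrast that chose the sites.

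In asynchronous cells the sites were weaker than the typical region of all 6 asynchronous lists. The median rank of all such regions was 14874 to 16126 by list. The median rank of the sites was 43948, 37763 and 32458 in asynchronous G1E-ER4 replicates 1, 2 and 3. In asynchronous G1E replicates 1, 2 and 3 it was 31073, 27860 and 30420. All 3 G1E-ER4 lists placed the sites lower than all 3 G1E lists did. The signal at the sites was, in the median, 1.36, 1.36 and 1.46 times that of the last listed peak in the G1E-ER4 lists and 2.03, 1.70 and 1.68 times in the G1E lists. Few sites were among the strongest peaks of any list: none was in the 10000 highest of a G1E-ER4 list, and 2, 29 and 1 were in those of G1E replicates 1, 2 and 3. At the other end, 125 sites (14.1%) ranked beyond 90000 in 1 or more asynchronous lists, and so stood close to missing the rule. A set of 244 sites (27.4%) ranked at 50000 or better in all 6 lists, and 30 (3.37%) at 30000 or better.

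**Figure D2:**
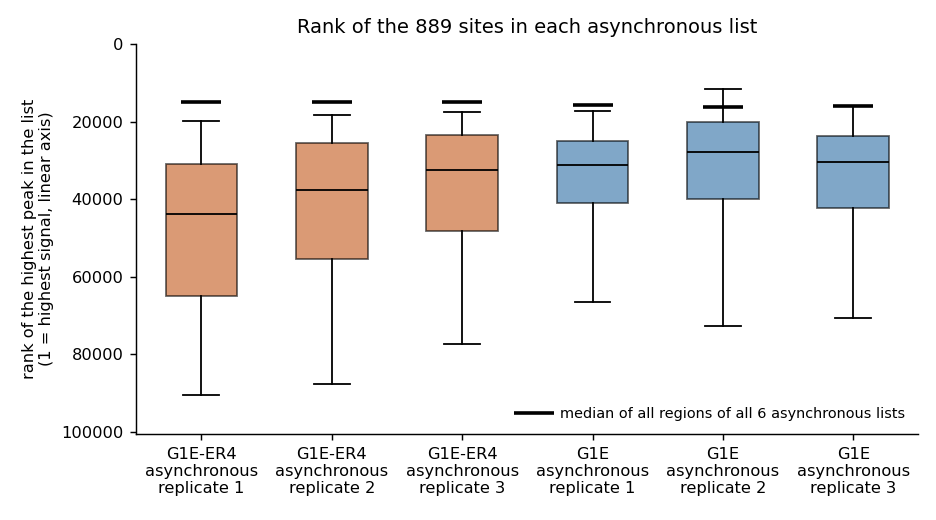
Rank of the 889 sites in the 6 asynchronous lists, with rank 1 at the top of a linear axis. Boxes show the median and quartiles, whiskers reach from the 5th to the 95th percentile of the sites, and black dashes mark the median of all 26664 regions of all 6 lists. The medians of the sites lie at 32458 to 43948 in G1E-ER4 and at 27860 to 31073 in G1E, below the dashes at about rank 15000.

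Such sites were found only at mean ranks beyond 15000. None of the 8252 regions with a mean asynchronous rank of 10000 or better, and none of the 3718 between 10000 and 15000, was absent from all 6 mitotic lists. The share was 0.542% (17 of 3138) between ranks 15000 and 20000 and 5.72% (117 of 2045) between 25000 and 30000. It was highest, at 11.3% (167 of 1477), between 35000 and 40000, and 6.43% (34 of 529) beyond 60000. The strong end of the rank scale thus held none of the sites. Beyond rank 60000 their share was lower than in the middle classes but above the 3.33% of all such regions. Beyond rank 60000 the median region width was 889 bp at the sites and 2928 bp at the other regions.

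**Figure D3:**
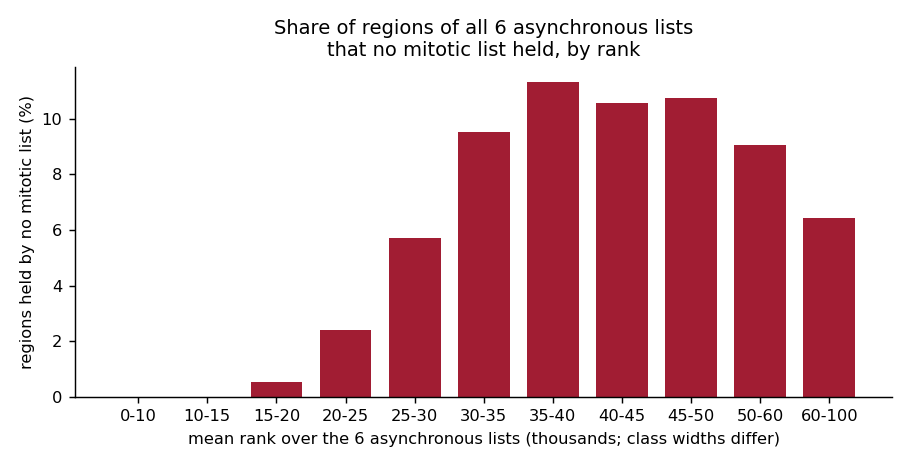
Share of the regions of all 6 asynchronous lists that no mitotic list held (vertical axis, percent), in classes of the mean rank over the 6 asynchronous lists (horizontal axis, labels to be multiplied by 1000, with unequal class widths). The first 2 classes hold no such site, and the bars reach 11.3% between ranks 35000 and 40000.

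Along the number of mitotic lists that held a region, strength and width changed in steps. The median of the mean rank was 37672 at the 889 sites, 33415 in the 1166 regions of 1 mitotic list, 25240 in the 1929 of 3, 20464 in the 2831 of 5 and 10046 in the 16145 of all 6. The median width of the merged region was 642 bp at the sites, 762, 1157 and 1859 bp in regions of 1, 3 and 5 mitotic lists and 3342 bp in regions of all 12. Merged width grows with every list added, and a wide peak also meets a mitotic peak more easily, so width is bound up with the rule. The sites' own asynchronous peaks, which no mitotic peak can widen, were narrow as well when set against regions of all 12 lists. Their median width was 410 ± 65.2 bp at the sites, against 452 ± 82.4 bp in regions of 1 mitotic list and 1352 ± 496 bp in regions of all 12 (mean of list medians ± SD, n = 6 asynchronous lists). Against all peaks of the same list the contrast varied. In G1E-ER4 replicates 1, 2 and 3 the medians were 442, 371 and 383 bp at the sites and 1195, 620 and 605 bp over all peaks. In G1E replicates 1, 2 and 3 they were 529, 364 and 369 bp against 763, 356 and 415 bp, so in replicate 2 the sites' peaks were not narrower. Of the sites, 686 (77.2%) were narrower than 1000 bp, against 4.88% of the regions of all 12 lists.

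**Figure D4:**
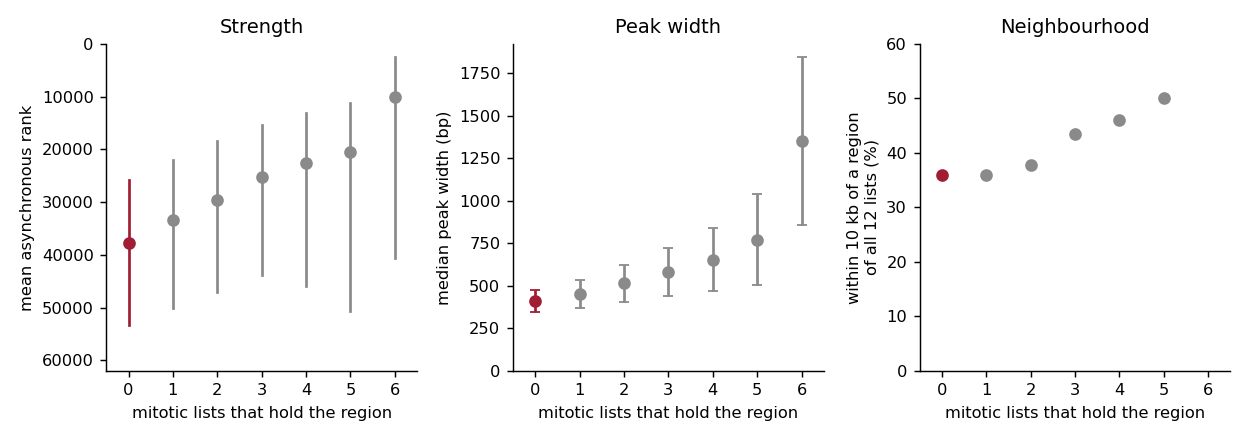
Regions of all 6 asynchronous lists by the number of mitotic lists that also held them (horizontal axes), with the 889 sites at 0 in red. The left panel gives the median of the mean asynchronous rank with the 10th to 90th percentile, the middle panel the median width of the asynchronous peaks (mean of list medians ± SD over 6 lists), and the right panel the percent within 10 kb of a region of all 12 lists. Rank improves from 37672 to 10046 and peak width grows from 410 to 1352 bp between 0 and 6 lists, and the share within 10 kb is 36.0% at 0, 35.9% at 1 and 50.0% at 5 lists.

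At equal strength the sites' peaks were narrower than those of regions of 1 to 5 mitotic lists as a whole. Between mean ranks 35000 and 45000, the asynchronous peaks of the 300 sites had a median width of 398 bp and those of the 1406 regions of 1 to 5 mitotic lists 548 bp. Between 15000 and 25000 the widths were 455 bp at 78 sites and 577 bp in 3381 such regions. Regions of 1 mitotic list were not compared on their own at equal strength. Over all ranks their peaks had 452 ± 82.4 bp and those of the sites 410 ± 65.2 bp (SD, n = 6 asynchronous lists). This SD is the spread between the same 6 lists, so it does not measure the spread of the difference, which was not tested. A wide peak meets a mitotic peak more easily at any rank, and this part of the rule in the widths was not tested. The extremes were a site of 287 bp on chromosome 9 from 108037091 to 108037377 and a site of 4524 bp on chromosome 19 from 44370832 to 44375355. Next to the narrowest came 316 bp on chromosome 1 from 155654531 to 155654846 and 319 bp on chromosome 17 from 75210273 to 75210591. After the widest came 3191 bp on chromosome 19 from 53331318 to 53334508 and 2868 bp on chromosome 1 from 182193441 to 182196308. The 3 narrowest had mean ranks of 41213, 54557 and 57107, so none was a strong site.

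The peaks of the 6 lists agreed closely on where a site was centred. The summits of the highest peak of each asynchronous list lay within a range of 43 bp at the median site, within 50 bp at 60.0% of the sites and within 150 bp at 86.6%. In 83 sites (9.34%) at least 1 asynchronous list had more than 1 peak. Regions of all 6 asynchronous lists and 1 mitotic list had a similar median summit range of 44 bp, and 13.6% of them had a list with more than 1 peak. The sites were thus mostly single, sharply placed openings. Sharp placement was not particular to them. The median summit range was 45 to 53 bp in regions of 2 to 5 mitotic lists and 62 bp in regions of all 12 lists.

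Several of the best ranked sites stood well inside the lists of both lines. The site with the best mean rank lay on chromosome 2 from 92014274 to 92014926 (653 bp) and ranked 14507, 14860 and 11626 in asynchronous G1E-ER4 and 30821, 9689 and 11076 in asynchronous G1E. G1E replicate 1 stood apart from the other 5 lists there. The site on chromosome 4 from 135540253 to 135541596 ranked 25860, 18590 and 17036 in G1E-ER4 and 7953, 10675 and 12567 in G1E, so that every G1E list placed it higher. A region of all 12 lists began 154 bp from it. The site on chromosome 16 from 58661710 to 58662532 ranked 28626, 18252 and 14036 in G1E-ER4 and 24203, 5057 and 5928 in G1E, with overlapping lines. Its G1E replicates 2 and 3 placed it among their 10000 highest peaks.

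The most even of the 10 best ranked sites lay on chromosome 5 from 149262397 to 149262958 (562 bp). It ranked 19169, 20186 and 16416 in asynchronous G1E-ER4 and 16540, 22123 and 17340 in asynchronous G1E, a mean of 18629 ± 2274 (SD, n = 6). Its lowest place, 22123, was the best such value of any site. The site on chromosome 3 from 51031934 to 51032421 (488 bp) was close to this, at 15531, 16257 and 16642 in G1E-ER4 and 15610, 24326 and 21139 in G1E. It was 1486 bp from another of the sites. The other 5 of the first 10 had mean ranks between 17159 and 18760. They lay on chromosome 3 from 108098834 to 108100080, chromosome 13 from 58389130 to 58389764, chromosome 1 from 157319229 to 157320299 and from 169344721 to 169345439, and chromosome 2 from 60255807 to 60256658. The last ranked 29474, 22460 and 23486 in G1E-ER4 and 12454, 9935 and 14234 in G1E, again without overlap between the lines.

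Regions just outside the rule were weak in the mitotic list that held them. The 1166 regions of all 6 asynchronous lists and 1 mitotic list had a median rank of 61563 in that list, and 67.0% of them ranked beyond 50000 there. They came unevenly from the libraries. Mitotic G1E-ER4 replicates 1, 2 and 3 were the 1 list for 52, 120 and 123 of them, and mitotic G1E replicates 1, 2 and 3 for 81, 395 and 395. Mitotic G1E replicates 2 and 3 thus held 33.9% each of the regions that missed the rule by 1 mitotic list. The best ranked of these regions lay on chromosome 2 from 103985835 to 103986705, with a mean asynchronous rank of 12110 ± 5371 (SD, n = 6) and rank 31082 in mitotic G1E replicate 2. The next lay on chromosome 11 from 61961800 to 61962500 and chromosome 13 from 110565986 to 110566892, at ranks 38213 and 37660 in mitotic G1E replicate 3.

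On the asynchronous side, 1277 regions had 5 asynchronous lists and no mitotic list. The missing list was G1E-ER4 replicate 1, 2 or 3 for 495, 292 and 164 of them, and G1E replicate 1, 2 or 3 for 99, 123 and 104. Asynchronous G1E-ER4 replicate 1 limited the set most, and without it the count was 1397 in place of 889. Taken by line, 4944 regions (12.1% of the 40892 regions of its 3 asynchronous lists) were held by no mitotic list in G1E-ER4 and 7666 (19.1% of 40059) in G1E. The 889 sites were 18.0% of the G1E-ER4 set and 11.6% of the G1E set.

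The sites and the regions of 1 mitotic list were about equally far from regions of all 12 lists, and regions of 3 to 5 mitotic lists were nearer, with medians of 13262 bp at 3 and 9996 bp at 5. The median gap to the nearest region of all 12 lists was 17119 bp, with quartiles of 6537 and 45650 bp, against 16050 bp for the 1166 regions of 1 mitotic list and 12962 bp for the 9630 regions of 1 to 5 mitotic lists. Of the sites, 320 (36.0%) were within 10 kb of such a region, against 35.9% of those of 1 mitotic list and 44.1% of those 9630. Far sites were about as common in both: 9.34% of the sites and 9.43% of the others were more than 100 kb away. In each class of strength compared, the median gap was longer at the sites than in regions of 1 to 5 mitotic lists as a whole, by little in the stronger classes. Between mean ranks 15000 and 25000 it was 15502 bp at the sites and 14024 bp in those regions, and between 25000 and 35000 it was 18456 and 15744 bp. Between 35000 and 45000 it was 18750 bp at the sites and 12656 bp for regions of 1 to 5 mitotic lists, and between 45000 and 55000 it was 16573 and 9460 bp. When each peak was replaced by a window of 300 bp on its summit, 23.2% of the sites so defined were within 10 kb, and where mitotic peaks had to cover at least 50% of a region, 13.1% were.

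At the near end, the sites on chromosome 19 from 44370832 to 44375355, chromosome 1 from 74986164 to 74987244 and chromosome 2 from 169976702 to 169977494 were 21, 28 and 72 bp from a region of all 12 lists. The edges of these 3 sites thus nearly touch chromatin that is open in every list. Altogether 47 sites were within 1 kb of a region of all 12 lists, and 192 within 1 kb of a peak of at least 1 mitotic list. At the far end, the site on chromosome 7 from 111348311 to 111348840 was 1198672 bp from the nearest region of all 12 lists. This site ranked 27100, 27256 and 23324 in asynchronous G1E-ER4 and 28238, 15032 and 22436 in asynchronous G1E, all of them better than the median of the sites. The next farthest, at 1084851 bp, was on chromosome 11 from 25201158 to 25201508, and its ranks averaged 50901. After it came a site on chromosome 2 from 176990972 to 176991373, at 857570 bp and a mean rank of 35568.

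Most sites had no other site within 100 kb. No random positions were drawn, so whether the sites gather more than their number alone would give was not tested. The median gap from a site to the nearest other one was 410876 bp. Within 100 kb of another lay 191 sites (21.5%), and 40 (4.50%) within 10 kb. When sites at most 100 kb apart were joined, 698 stood alone, 69 formed pairs, 11 groups had 3 and 5 groups had 4, which was the largest size. Along the ordered regions of all 6 asynchronous lists, the region after a site was itself one of the 889 in 38 of 888 cases (4.28%), against 3.33% of all such regions. It was a region of all 12 lists in 56.2% of cases, against 60.7% after other regions. A region of all 12 lists thus followed most sites, though somewhat less often than it followed other regions.

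The tightest group of 4 lay on chromosome 11 from 107268287 to 107313562, within 45276 bp. Its members had mean ranks of 34955, 34274, 30681 and 46176. Further groups of 4 lay on chromosome 7 from 71052833 to 71119801 and chromosome 1 from 95729090 to 95808830, with mean ranks of 41733 to 51218 and 26163 to 38496. By chromosome, 23 (chromosome 12) to 73 (chromosome 2) sites were found. Relative to the regions of all 6 asynchronous lists, they made up 1.10% on chromosome 12 (23 of 2090) and 5.55% on chromosome 13 (48 of 865), with the other 17 autosomes between 2.38% and 4.97%.

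The authors' pooled lists, made from the same libraries, gave a partly different view of absence. The pooled mitotic lists held 29 of the 889 sites (3.26%) in G1E-ER4 and 47 (5.29%) in G1E, and the pooled asynchronous lists held all 889 in both lines. Of the 70 sites in either pooled mitotic list, 6 were in both. Their places were low, with a median pooled rank of 89790 in mitotic G1E-ER4 and 85687 in mitotic G1E, against 29499 in asynchronous G1E-ER4 and 29297 in asynchronous G1E. Among the 50000 highest pooled mitotic peaks were 2 sites in G1E-ER4 and 3 in G1E. The site on chromosome 6 from 87697877 to 87699673 was the best placed of those in both, at pooled rank 42426 in mitotic G1E-ER4 and 71458 in mitotic G1E, with a listed mitotic peak of a single library 10 bp away. Its ranks in asynchronous cells were 22333, 16277 and 16446 in G1E-ER4 and 17929, 22875 and 95436 in G1E, so only the last list put it near the limit. Others in both pooled mitotic lists lay on chromosome 12 from 32189484 to 32190586, chromosome 14 from 115190389 to 115191147, chromosome 15 from 86035724 to 86036838 and chromosome 13 from 58389130 to 58389764. Of the 10 best ranked sites, 4 were in a pooled mitotic list, the even site on chromosome 5 among them at rank 79314 in mitotic G1E.

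The lines were compared in asynchronous cells. The rule uses the same 6 lists, as presence, and falls unequally on the lines, as the counts of missing lists and the shares by line above show. Its part in the line values at the sites was not tested, so these are given as a description, and p-values are for single sites only. For all 26664 regions of all 6 asynchronous lists, the log2 of 100000 divided by the rank was compared between asynchronous G1E-ER4 and asynchronous G1E with limma, so that a positive difference means a place nearer the top in G1E-ER4. All 889 sites entered. The difference was negative for 624 of 889 sites (70.2%) and for 44.5% of all regions. Its median was -0.34 at the sites and 0.12 over all regions on this log2 rank scale, with a median SE of 0.41 at the sites. Between mean ranks 35000 and 45000 the medians were -0.34 at the sites and 0.13 in other regions. The 3 G1E-ER4 ranks were all worse than the 3 G1E ranks at 177 sites (19.9%) and all better at 41 (4.61%), against 13.7% and 21.3% of all regions.

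At single sites the difference passed an adjusted p of 0.05 (limma, Benjamini-Hochberg over all 26664 regions) in few cases. It did so for 5 sites higher in G1E-ER4 and 18 lower, which is 0.562% and 2.02% of the sites, against 3.27% and 3.61% of all regions (6.88% in either direction). With the replicate number as a block, the counts were 8 and 47 sites, against 1969 and 1833 of all 26664 regions. No site passed in limma when asynchronous G1E-ER4 replicate 2 or 3 or G1E replicate 3 was left out, 1 higher and 2 lower passed without G1E-ER4 replicate 1, 1 lower passed without G1E replicate 2, and 9 higher and 46 lower passed without G1E replicate 1. At an unadjusted p below 0.05, 35 sites were higher (3.94%, against 16.9% of all regions) and 156 lower (17.55%, against 11.9% of all regions). The share lower in G1E-ER4 was thus below that of all regions by adjusted p and above it by unadjusted p. With a list left out, 18 to 36 sites were higher and 109 to 161 lower at this unadjusted limit.

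The sites called in this comparison are named by their order among the 889 along a chromosome. The clearest of the 5 higher in G1E-ER4, chromosome 2 site 66, from 164241990 to 164243548, ranked 26158, 13852 and 19307 in asynchronous G1E-ER4 and 64949, 78684 and 98860 in asynchronous G1E. The difference was 2.06 ± 0.36 (SE; limma, adjusted p = 0.0211). Chromosome 9 site 10, from 22126700 to 22127770, ranked 26623, 23404 and 21658 in G1E-ER4 and 58458, 71146 and 65553 in G1E (difference 1.45 ± 0.30 SE, limma adjusted p = 0.0313). The lists of each line agreed closely there. Chromosome 8 site 41, from 114394932 to 114396131, ranked 24333, 16882 and 18439 in G1E-ER4 and 44513, 96408 and 62426 in G1E (difference 1.71, limma adjusted p = 0.0372). Chromosome 13 site 5, from 12533126 to 12534751, ranked 28377, 29998 and 36666 in G1E-ER4 and 74549, 77207 and 86553 in G1E (difference 1.33, limma adjusted p = 0.0385). The G1E lists placed this site beyond rank 50000, and the G1E-ER4 lists did not. Chromosome 19 site 27, one of the 3 widest sites, ranked 14881, 15440 and 12502 in G1E-ER4 and 63770, 35410 and 30274 in G1E (difference 1.52, limma adjusted p = 0.0473). In all 5 the lines did not overlap.

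Of the 18 called lower, the largest difference was at chromosome 11 site 54, from 107312298 to 107313562, a member of the tightest group of 4. It ranked 67038, 70069 and 98606 in asynchronous G1E-ER4 and 15530, 9871 and 15943 in asynchronous G1E, a difference of -2.52 ± 0.35 (SE; limma, adjusted p = 0.0130). The pooled mitotic G1E list held it at rank 67157, and the pooled mitotic G1E-ER4 list did not hold it. Its neighbours in the group, sites 51 to 53, had differences of -1.17, 0.14 and -0.50, and none passed. Chromosome 4 site 35, from 144570668 to 144571620, ranked 55392, 75925 and 39132 in G1E-ER4 and 13479, 13571 and 15501 in G1E (difference -1.95 ± 0.35 SE, limma adjusted p = 0.0220). Chromosome 11 site 34, from 86466886 to 86467390, ranked 66632, 68310 and 64064 in G1E-ER4 and 24946, 15606 and 19259 in G1E (difference -1.76 ± 0.32 SE, limma adjusted p = 0.0228). At both, every G1E-ER4 list placed the site lower than every G1E list, and chromosome 4 site 35 was still better than rank 50000 in G1E-ER4 replicate 3.

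The next by p were on chromosome 9. Site 17, from 31061661 to 31062886, ranked 67530, 43863 and 35969 in G1E-ER4 and 14478, 12597 and 12571 in G1E (difference -1.85, limma adjusted p = 0.0252). Site 13, from 24977507 to 24978316, ranked 46509, 74210 and 95563 in G1E-ER4 and 20757, 21555 and 18102 in G1E (difference -1.78, limma adjusted p = 0.0302). At both sites the 3 G1E lists lay close together and the G1E-ER4 lists were spread. Over all 18 sites called lower, differences lay between -2.52 and -1.29 and limma's adjusted p between 0.0130 and 0.0485. Under the alternative fits and with a list left out, the highest limma adjusted p was 0.0823 at chromosome 11 site 54. It was between 0.119 (chromosome 2 site 66) and 0.227 (chromosome 19 site 27) at the other 9 named called sites. Of up to 12 such settings, the threshold was missed in 5 at chromosome 11 site 54 and in 8 at chromosome 8 site 41. It was missed in 9 at chromosome 19 site 27 and in 7 at each of the remaining named called sites.

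**Figure D5:**
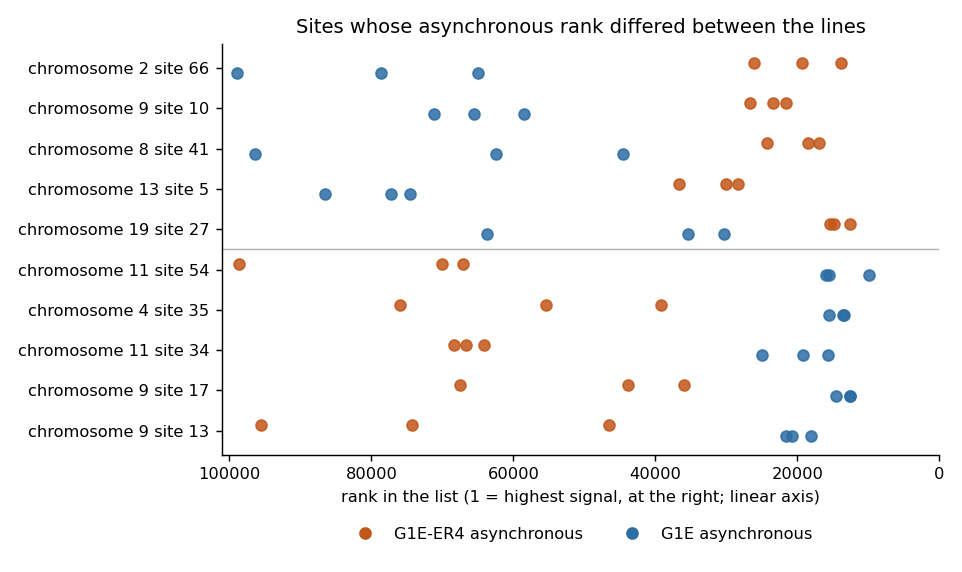
Ranks of the 10 named sites with a called line difference in the 3 asynchronous G1E-ER4 lists and the 3 asynchronous G1E lists, on a linear rank axis with rank 1 at the right. Each point is 1 library. In the upper 5 sites every G1E-ER4 point lies to the right of every G1E point, and in the lower 5 every G1E-ER4 point lies to the left.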

How the data were processed

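Per the labels' protocols, nuclei of fixed cells were cut with DNase I, and digests at 3 enzyme concentrations were taken for sequencing. The submitters' processing notes name Bowtie and build mm9. How peaks were called is not stated in the labels or headers. The deposited lists, 12 of single libraries and 4 pooled by the authors, give a position, a summit offset, a name and a signal per peak, and the signal is the value of the authors' peak caller in an unstated scaling. It served for ranks inside each list and for ratios to that list's last peak. Signal was not compared between lists, since depth is unknown and counting intervals could not be given. Positions are on mm9 and counted from 1.

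Overlapping peaks were merged, and the highest peak of a list in a region gave its rank. Gaps run between region edges. The line comparison used limma 3.58.1 in R 4.3.3 on log2(100000 / rank) over the 6 asynchronous lists without a block. Same-numbered lists of the lines deviated together (correlations of 0.371, 0.159 and 0.14 over 26664 regions), each over the 0.1 taken as pairing, so counts with a replicate block are also given. The labels state no pairing, and G1E-ER4 replicate 3 correlated more with G1E replicate 2 (0.266) than with replicate 3. Other work used Python 3.11.15, numpy 2.4.6, pandas 2.3.3, scipy 1.17.1 and matplotlib 3.10.9. The procedures were tested on simulated data.

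The sites, the rules and the tests were chosen with earlier results of these data known. Named are the 10 sites with the best mean rank, the 3 nearest to and farthest from regions of all 12 lists, the 3 narrowest and widest, 3 of the 5 groups of 4 (those of shortest span), up to 5 called in each direction of the line comparison, 5 in both pooled mitotic lists and 3 regions just outside the rule. Gene annotation and sequence were not used here, because those at hand are of another assembly, GRCm38.p6.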

Additional observations from a re-analysis of the deposited data

Results flagged for a closer look

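Of 20 quantities with a value in 6 libraries of a stage, 2 had a library far from the other 5, where chance flags about 1 in 20. Asynchronous G1E replicate 2 had 29 of the sites among its 10000 highest peaks, and the other 5 asynchronous lists had 0 to 2. Asynchronous G1E replicate 1 placed chromosome 2 site 29 (from 92014274 to 92014926), the site with the best mean rank, at 30821, and the other 5 lists placed it between 9689 and 14860.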

How the results depend on the processing

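The count of 889 sites was 946 to 1397 with 1 library left out, 2362 or 245 with the 50000 highest peaks of the mitotic or of the asynchronous lists only, 2166 with at least 5 asynchronous lists, 2055 with at most 1 mitotic list and 4017 where mitotic peaks had to cover at least 50% of the region, a setting chosen after seeing the data. These settings loosen or tighten the rule by their construction. With the 50000 highest peaks of every list 796 sites were found, but these are largely other regions. Only 244 of the 889 sites ranked at 50000 or better in all 6 asynchronous lists and so could be kept. The median mean rank of 37672 was 36237 to 39903 with 1 library left out, 25969 and 27457 with the 50000 highest peaks of all or of the asynchronous lists, and 27782 under 50% coverage. The median width of 642 bp was 578 to 674 bp with 1 library left out, 719 bp with 50000 peaks of all lists, 758 bp with 50000 mitotic peaks, 710 bp with at most 1 mitotic list, 342 bp around summits and 1259 bp under 50% coverage. The share within 10 kb of a region of all 12 lists, 36.0%, was 34.3% to 39.4% with 1 library left out, 30.7%, 31.9% and 31.8% with 50000 peaks of all, mitotic or asynchronous lists, 23.2% around summits and 13.1% under 50% coverage. The share with another site within 100 kb, 21.5%, was 22.2% to 29.9% with 1 library left out, 45.4% and 9.80% with 50000 mitotic or asynchronous peaks, 40.2% with 5 asynchronous lists, 39.3% with 1 mitotic list and 64.4% under 50% coverage. Asking a peak and its region to share 50% of the shorter interval could change nothing, as a peak always lies inside its region. A longer overlap than 1 bp for joining peaks was not run. All 10 best ranked sites met the rule in every setting run, except that 6 did when the pooled lists had to agree. Most of the other settings could not remove them and so do not test them. Such settings loosen the rule or cut at rank 50000, and these sites ranked at 30821 or better in every asynchronous list.

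The line calls depended on the fit. Over all regions, 873 higher and 962 lower in G1E-ER4 became 1969 and 1833 with the replicate block, 539 and 635 with ranks taken anew, 246 and 293 with normal scores, 11 and 12 with the mean rank of a list's peaks, and 0 to 2045 and 0 to 1956 with 1 library left out. The 5 and 18 sites became 8 and 47 with the block, 1 and 5 with ranks taken anew, 2 and 5 with normal scores, 7 and 36 with trend and robust settings, 3 and 18 with mean ranks of 50000 or better, 0 and 0 with the mean rank of a list's peaks (limma; 26 and 113 at an unadjusted p below 0.05), and 0 to 9 and 0 to 46 with 1 library left out. Without G1E-ER4 replicate 1, 2 or 3 they were 1 and 2, 0 and 0, and 0 and 0, and without G1E replicate 1, 2 or 3 they were 9 and 46, 0 and 1, and 0 and 0. The cause was not tested. The median difference at the sites stayed negative throughout. On the log2 rank scale of the main fit it lay between -0.24 and -0.42. With ranks taken anew it was -0.14 and with normal scores -0.26, each on another scale. None of the 10 named called sites reversed. Their lines did not overlap, so leaving out a list could not change the sign and does not test it. The line differences of the other named sites were not run under alternatives. Depth limits all of this by an unknown amount.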
